A study of Rattus norvegicus with 12 samples.

Results

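The cytosolic chaperonin CCT, also called TRiC, is built from 8 different subunits, encoded by Tcp1, Cct2, Cct3, Cct4, Cct5, Cct6a, Cct7 and Cct8. The genes were taken from the RNA-Seq table of rat liver by an exact match of the gene name. Each name had exactly 1 entry, so the 8 subunits are 8 of the 34391 transcripts listed and of the 21718 with a value above 0 in at least 1 liver. All 8 were above 0 in all 12 livers. The genes are not clustered, and lie on chromosomes 1 (Tcp1), 2 (Cct3 and Cct5), 4 (Cct7), 7 (Cct2), 11 (Cct8), 12 (Cct6a) and 14 (Cct4). The livers came from female inbred alcohol-preferring (iP10a) rats, a line bred to drink alcohol by choice. In the EtOH group, 6 rats could choose among bottles of 10, 20 and 30% ethanol (v/v), beside water and food, for 23 weeks. In the Control group, 6 rats had water and food only for the same 23 weeks. All were 38 weeks old when the liver was taken, except EtOH rat 6, which was 39 weeks old. Both groups thus share strain and sex, and because the rats chose how much to drink, the intake of each animal was not set. Levels are RPKM, the reads on a transcript scaled to its length and to the mapped reads of the library. Whole read numbers could be recovered from the RPKM steps, as the smallest whole numbers that fitted. The true numbers could be a multiple of them, and the paper reports a higher average number of reads per sample. The recovered numbers came to between 2610238 and 4318141 reads per Control liver and between 3945593 and 6030028 per EtOH liver. Each subunit took between 216 and 733 of these.

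CCT is a double ring in which every position of a ring is held by a different subunit. Newly made proteins that cannot fold alone enter the cavity, and the ring closes over them as ATP is hydrolysed. Its main clients are actin and the alpha and beta tubulins, the building blocks of microfilaments and microtubules. Prefoldin delivers these chains to CCT, phosducin-like proteins act as cochaperones on it, and tubulin cofactors take released tubulins on to the assembled dimer. In hepatocytes this cytoskeleton serves secretion, bile canaliculi and vesicle traffic.

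The promoter sequences of the subunits are given here to set what is known of their sequence beside the levels that follow. They are from RefSeq on the build GRCr8, 250 bases up to the annotated start, 5′ to 3′ on the strand of the gene, and all 8 subunits were matched by symbol. The first pair belongs to Cct3 and Cct6a, the subunits that passed the test below, and the second pair to Cct2 and Cct4, whose fitted differences lay nearest to 0. The positions are chr2:176063279-176063528 on the plus strand for Cct3, chr12:32519073-32519322 on the minus strand for Cct6a, chr7:54591406-54591655 on the minus strand for Cct2 and chr14:101192807-101193056 on the plus strand for Cct4. Capitals mark the CCAAT box (CCAAT on either strand, so also ATTGG), the tail-to-tail heat shock element (TTCNNGAA) and the cyclic AMP response element (TGACGTCA).
Cct3: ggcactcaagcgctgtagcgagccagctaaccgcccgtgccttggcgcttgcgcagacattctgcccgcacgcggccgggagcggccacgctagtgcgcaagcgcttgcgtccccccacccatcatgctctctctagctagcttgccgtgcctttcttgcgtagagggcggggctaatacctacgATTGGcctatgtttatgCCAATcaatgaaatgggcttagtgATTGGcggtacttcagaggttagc
Cct6a: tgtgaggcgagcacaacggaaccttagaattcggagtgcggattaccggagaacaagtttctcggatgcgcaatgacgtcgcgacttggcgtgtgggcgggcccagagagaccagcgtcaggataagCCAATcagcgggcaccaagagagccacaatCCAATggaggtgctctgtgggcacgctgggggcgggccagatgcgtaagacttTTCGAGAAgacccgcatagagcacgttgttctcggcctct
Cct2: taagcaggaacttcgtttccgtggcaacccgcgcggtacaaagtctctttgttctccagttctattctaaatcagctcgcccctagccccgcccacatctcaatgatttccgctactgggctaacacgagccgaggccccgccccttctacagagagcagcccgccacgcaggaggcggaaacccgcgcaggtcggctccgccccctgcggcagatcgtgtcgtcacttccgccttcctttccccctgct
Cct4: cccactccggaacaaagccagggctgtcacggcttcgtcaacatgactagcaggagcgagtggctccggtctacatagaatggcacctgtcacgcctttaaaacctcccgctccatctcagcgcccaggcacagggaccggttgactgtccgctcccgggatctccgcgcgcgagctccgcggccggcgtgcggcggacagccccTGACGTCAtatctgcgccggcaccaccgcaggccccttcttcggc
The Cct3 window holds 3 CCAAT boxes, the first of them 65 bases before the start. The Cct6a window holds 2 CCAAT boxes and 1 heat shock element, which begins 40 bases before the start. The Cct2 window holds none of the marked motifs, and the Cct4 window holds the cyclic AMP response element alone.

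Over the 8 subunits, a CCAAT box was present in 5 (Cct3, Cct5, Cct6a, Cct7 and Cct8), against 34.3% of all 27457 promoters of the same length. The tail-to-tail heat shock element was present in Cct5 and Cct6a, against 7.23% of all promoters. No subunit held the head-to-head form (GAANNTTC), which 7.02% of promoters had. A GC box (GGGCGG) was present in 5 subunits (Tcp1, Cct2, Cct3, Cct6a and Cct7), against 32.4%. An ETS site (CCGGAAG) was found in Tcp1 alone, against 7.74%, and the cyclic AMP response element in Cct4 alone, against 1.7%. None of the 8 windows held a TATA box (TATAAA, 13.1% of promoters), an E-box (CACGTG, 5.79%), a sterol regulatory element (TCACNCCAC, 0.976%), an NRF1 site (GCGCATGCG, 1.49%) or a ZNF143 site (ACTACAATT, 0.397%). All motifs were sought on both strands as exact letters, none of the marked matches overlapped another, and a match is a description of letters, not of a bound factor. The GC content ranged from 49.2% in Cct8 to 66.4% in Cct7, against a median of 52% over all promoters.

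Cct3 and Cct6a were lower in the livers of EtOH rats, and none of the 8 subunits was higher at the threshold used. In deposited RPKM, the mean level was 1.39 times as high in Control as in EtOH livers for Cct3 and 1.43 times as high for Cct6a. These ratios are before normalization between livers, where the fitted log2 fold changes (EtOH minus Control) were -0.46 and -0.50. After the quantile normalization used for the test they were smaller, at -0.29 and -0.34. The 6 other subunits did not pass the test, although their mean RPKM was also higher in the Control group. Tested with limma on quantile-normalized log2(RPKM + 0.5) values, with Benjamini-Hochberg adjustment over all 21718 transcripts and a threshold of 0.05, 2 of 8 subunits were called lower. Among all transcripts tested, 1.29% were called lower and 1.13% higher. Abundant transcripts are called more often, and of the 3817 with a mean of at least 10 RPKM, 4.48% were called lower. The median log2 fold change (EtOH minus Control) of the 8 subunits was -0.13, against 0.0002 over all transcripts, and fitted differences were negative for 6 of 8. An unadjusted p below the same threshold was reached by 4 of 8 subunits (Cct3, Cct6a, Tcp1 and Cct8), against 34.8% of the abundant transcripts. Cct3 and Cct6a are also in the wider list of altered genes in the study's supplementary material, so their calls here are not independent evidence of it. In whole liver, a lower level can mean fewer cells of a type or less RNA per cell, which cannot be told apart.

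**Figure D1:**
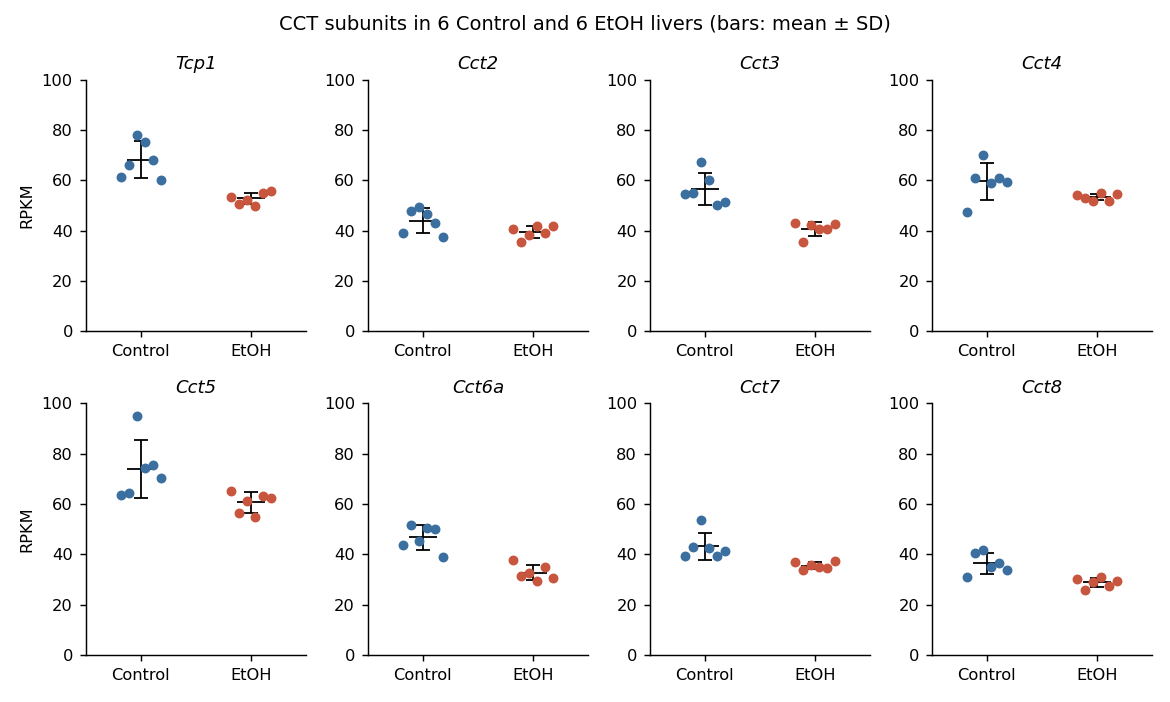
RPKM of each CCT subunit in 6 Control (blue) and 6 EtOH (red) livers. Each point is a liver, and bars give the mean ± SD. All 6 EtOH livers lie below all 6 Control livers for Cct3, Cct6a, Tcp1, Cct7 and Cct8, by 0.02 RPKM for Cct8, and the groups overlap for Cct2, Cct4 and Cct5.

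Cct3 encodes CCT gamma. In Control livers its RPKM was lowest at 50.1, with a median of 54.7 and a highest value of 67.5. In EtOH livers the lowest was 35.3, the median 41.4 and the highest 43.0. No EtOH liver reached the lowest Control liver, and the same separation held after quantile normalization. The means were 56.5 ± 6.44 (SD, n = 6) and 40.7 ± 2.85 RPKM, with a limma log2 fold change of -0.29 (SE 0.06, adjusted p = 0.025). The values rest on 2355 Control and 2382 EtOH reads.

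Cct6a encodes CCT zeta, the neighbour of CCT gamma in the ring. Its RPKM in Control livers had a lowest value of 39.1, a median of 47.8 and a highest of 51.5. In EtOH livers these were 29.3, 32.0 and 37.6. The groups did not overlap in RPKM, with 1.49 RPKM between the nearest livers, Control rat 6 and EtOH rat 1, but they did overlap after quantile normalization. The means were 46.7 ± 4.85 and 32.8 ± 3.05 RPKM (SD, n = 6), and limma gave a log2 fold change of -0.34 (SE 0.08, adjusted p = 0.046). The call lies close to the threshold and was lost when any of 9 of the 12 livers was left out (Control 1, 2, 4 or 5, or EtOH 2, 3, 4, 5 or 6), with adjusted p up to 0.096. The Cct3 call was lost without Control 4 (0.054), EtOH 2 (0.063), EtOH 4 (0.054) or EtOH 5 (0.053). A close relative of Cct6a, Cct6b, had only 6 reads in the Control and 4 in the EtOH livers.

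Tcp1 encodes CCT alpha, the subunit that gave the family its name. It ranged from 60.0 to 78.0 RPKM in Control livers (median 67.2) and from 49.8 to 55.7 in EtOH livers (median 52.7). The groups did not overlap, before or after quantile normalization. Its log2 fold change was -0.19 (SE 0.05, limma adjusted p = 0.072), which did not pass the threshold under quantile normalization but passed under median scaling (adjusted p = 0.042) and without normalization between livers (0.014). Cct8, for CCT theta, ranged from 31.0 to 41.9 RPKM in Control livers (median 35.8) and from 26.0 to 31.0 in EtOH livers (median 29.1). Control rat 1 and EtOH rat 4 differed by 0.02 RPKM only, and the separation of the groups rests on that difference. The log2 fold change of Cct8 was -0.16 (SE 0.05, adjusted p = 0.146), and it passed without normalization only (adjusted p = 0.035).

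Cct7 and Cct5, for CCT eta and CCT epsilon, sit side by side in the ring. Cct7 ranged from 39.3 to 53.7 RPKM in Control livers (median 41.9) and from 33.6 to 37.2 in EtOH livers (median 35.4), without overlap in RPKM. Its log2 fold change after quantile normalization was -0.10 (SE 0.05, adjusted p = 0.377). Cct5 ranged from 63.7 to 95.2 RPKM in Control livers (median 72.3) and from 55.0 to 65.2 in EtOH livers (median 61.8), where EtOH rat 1 lay above Control rats 1 and 2. Its log2 fold change was -0.11 (SE 0.07, adjusted p = 0.530). The highest value of both genes was that of Control rat 3, which stood clear of the other Control rats.

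Cct2 and Cct4, for CCT beta and CCT delta, are also neighbours in the ring. Cct2 ranged from 37.3 to 49.4 RPKM in Control livers (median 44.8) and from 35.7 to 41.8 in EtOH livers (median 39.9). Only 1 EtOH liver lay below every Control liver. Cct4 ranged from 47.4 to 70.1 RPKM in Control livers (median 60.0) and from 51.9 to 54.8 in EtOH livers (median 53.5), and no EtOH liver lay below every Control liver, because Control rat 1 had the lowest value of all. The log2 fold changes were 0.02 for Cct2 (SE 0.05, adjusted p = 0.897) and 0.02 for Cct4 (SE 0.06, adjusted p = 0.907). The sign depends on the scaling, since under median scaling Cct2 was at -0.05 and Cct4 at -0.06, and without normalization at -0.14 and -0.15.

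In deposited RPKM, 5 of 8 subunits were lower in every EtOH than in every Control liver. The same held for 2.43% of all transcripts tested and for 9.56% of those with a mean of at least 10 RPKM. After quantile normalization it held for Cct3 and Tcp1, against 1.26% of all and 4.06% of the abundant transcripts. The subunits are all abundant, between the 93.1 and 96.2 percentile of mean RPKM of the transcripts tested. Without normalization, abundant transcripts as a whole had a median log2 fold change of -0.14, against 0.0005 after quantile normalization and -0.05 after median scaling. On the same 3 scales the median of the 8 subunits was -0.30, -0.13 and -0.21. The median of the subunits was thus below that of the abundant transcripts on each scale. The calls were 4 subunits without normalization (Cct3, Cct6a, Tcp1 and Cct8), where 2.98% of all transcripts were called lower. Under median scaling they were 3 (Cct3, Cct6a and Tcp1), where 1.55% of all transcripts were called lower. The share called among abundant transcripts was not computed on these scales. An unadjusted p under 0.05 was reached by 42.5% of them without normalization and by 35.7% under median scaling. On both scales 6 of 8 subunits reached it. Over all transcripts, the calls split into 281 lower and 245 higher after quantile normalization, 337 lower of 531 under median scaling and 648 lower of 774 without normalization.

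**Figure D2:**
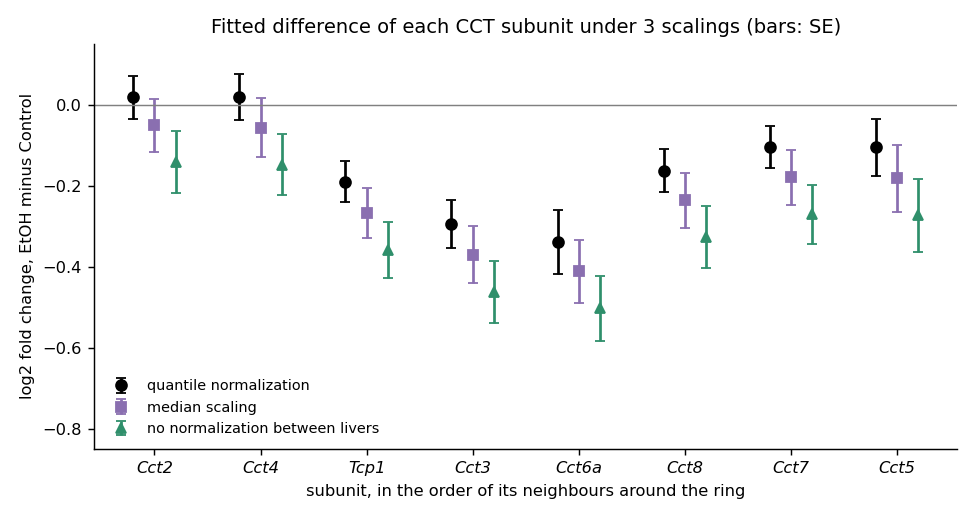
Fitted log2 fold change (EtOH minus Control, limma, n = 6 per group) of each CCT subunit under 3 scalings, placed in the order of neighbours around the ring, with SE as bars. Cct3 and Cct6a are lowest on each scale, and Cct2 and Cct4 lie just above 0 after quantile normalization and below 0 on the other scales.

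Around the ring, known from structures, the subunits follow each other as Cct2, Cct4, Tcp1, Cct3, Cct6a, Cct8, Cct7 and Cct5. In that order the log2 fold changes after quantile normalization were 0.02, 0.02, -0.19, -0.29, -0.34, -0.16, -0.10 and -0.11. The 4 most negative values thus belong to 4 consecutive positions, Tcp1 to Cct8. This order was noticed after the values were seen, transcript levels say nothing of the position of a protein, and no test was made. Cct3, Cct6a, Cct7 and Cct8 belong to the side of the ring with weak ATP binding and ranged from -0.34 to -0.10, while the other side, Tcp1, Cct2, Cct4 and Cct5, ranged from -0.19 to 0.02.

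A ratio of subunits within a liver does not change when each liver is scaled by a single factor, as in median scaling. Quantile normalization is not of that kind, and the ratios given here are of deposited RPKM. The pairs set Cct3 and Cct6a against Cct2 and Cct4 and were chosen after their values were seen, so they are a description. The ratio of Cct3 to Cct2 RPKM was 1.29 ± 0.111 in Control livers (range 1.15 to 1.40) and 1.03 ± 0.046 in EtOH livers (range 0.971 to 1.10; SD, n = 6), without overlap. The ratio of Cct3 to Cct4 was 0.955 ± 0.119 in Control and 0.763 ± 0.053 in EtOH livers, also without overlap (lowest Control 0.823, highest EtOH 0.812). For Cct6a to Cct2 the ratio was 1.07 ± 0.084 in Control and 0.831 ± 0.092 in EtOH livers, with ranges of 0.920 to 1.17 and 0.702 to 0.925 that just overlapped. For Cct6a to Cct4 it was 0.792 ± 0.111 and 0.614 ± 0.063, with ranges of 0.649 to 0.921 and 0.535 to 0.695 that overlapped too. Relative to Cct2 and Cct4, Cct3 was thus lower in every EtOH than in every Control liver.

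The summed RPKM of the 8 subunits ranged from 379.9 to 501 in Control livers (mean 428 ± 43.0) and from 322 to 361 in EtOH livers (mean 344 ± 13.7; SD, n = 6). In deposited RPKM the groups did not overlap, and the EtOH mean differed from the Control mean by -19.6%. Without normalization, abundant transcripts as a whole had a median log2 fold change of -0.14, against -0.30 for the subunits. The sum was not corrected for this shift. In deposited RPKM, Control livers varied more than EtOH livers in every subunit. The coefficient of variation was between 10.4 and 15.6% in the Control and between 2.52 and 9.32% in the EtOH group. This is not particular to CCT. The SD in Control and EtOH livers was 11.2 and 5.07 RPKM for Hspd1 and 13.1 and 5.09 for Hspe1, but 12.3 and 15.2 for Actb. The share over all transcripts was not computed. Control rat 3 was the highest Control liver for 7 of 8 subunits, Cct6a excepted. The lowest Control liver was rat 1 for Cct4, Cct5 and Cct8, rat 5 for Cct3 and Cct7, and rat 6 for Tcp1, Cct2 and Cct6a. EtOH rat 2 was the lowest EtOH liver for 4 subunits (Cct2, Cct3, Cct7 and Cct8) and EtOH rat 4 for 3 (Tcp1, Cct5 and Cct6a).

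**Figure D3:**
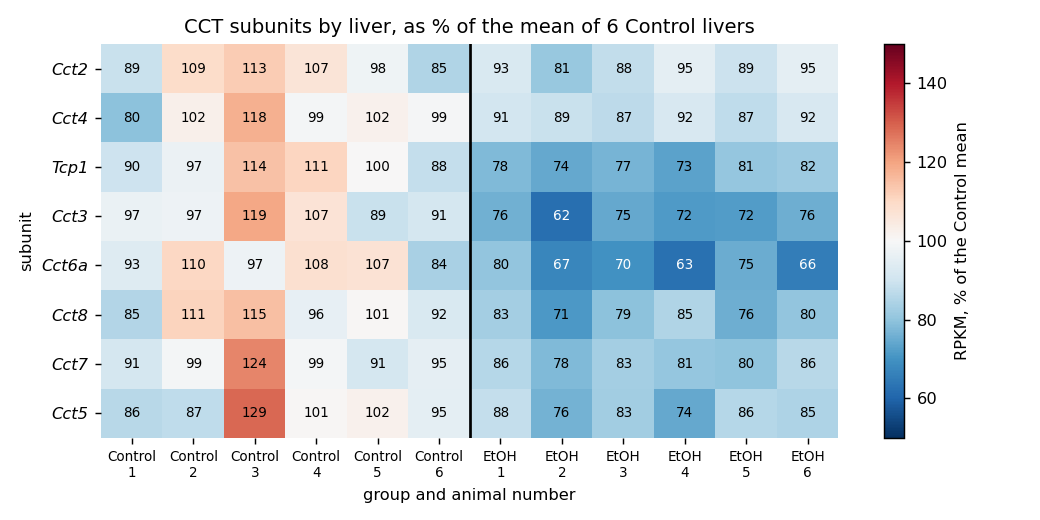
RPKM of each CCT subunit (vertical axis) in each liver (horizontal axis, group and animal number), as percent of the mean of the 6 Control livers. Control rat 3 is above 100% for every subunit except Cct6a, and all EtOH values are below 100%. Values are before normalization between livers.

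Cct5 had the highest mean level in both groups and Cct8 the lowest. In Control livers the order of means was Cct5, Tcp1, Cct4, Cct3, Cct6a, Cct2, Cct7 and Cct8. Tcp1 exceeded Cct4, Cct3 exceeded Cct6a, and Cct7 exceeded Cct8 in 6 of 6 livers, whereas Cct5 exceeded Tcp1 in 4, Cct4 exceeded Cct3 in 4, Cct6a exceeded Cct2 in 5 and Cct2 exceeded Cct7 in 3. In EtOH livers the order was Cct5, Cct4, Tcp1, Cct3, Cct2, Cct7, Cct6a and Cct8. There Cct6a had moved from the fifth to the seventh place, with Cct7 above it in 4 of 6 livers, and Cct4 and Tcp1 each led in 3. Some neighbours changed places between livers of a group, also Cct6a and Cct8, which held this order in 5 of 6 EtOH livers. Whether such neighbours differ was not tested. As a share of the summed subunits, Cct6a made up 11.0 ± 1.17% in Control and 9.52 ± 0.73% in EtOH livers, and Cct3 13.2 ± 0.85% and 11.8 ± 0.46%. Cct2 made up 10.2 ± 0.58% and 11.5 ± 0.50%, and Cct4 13.9 ± 0.91% and 15.5 ± 0.65% (SD, n = 6). The shares of all 8 subunits overlapped between the groups.

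Among the genes that work with CCT, Txndc9 was the one called. It encodes PhLP3, a phosducin-like protein that binds CCT and modulates the folding of actin and tubulin. Its RPKM ranged from 20.2 to 24.8 in Control and from 15.4 to 17.2 in EtOH livers, without overlap. The means were 22.4 ± 1.60 and 16.1 ± 0.66 (SD, n = 6), with a limma log2 fold change of -0.31 (SE 0.05, adjusted p = 0.0055). The other phosducin-like genes tested, Pdcl (0.06) and Pdcl3 (-0.03), were not called, and Pdcl2 was listed at 0. Of the prefoldin genes, 4 of 6 were found by name and none was called by limma or had an unadjusted p under 0.05. The smallest p was that of Pfdn2 (-0.21, adjusted p = 0.407). Of the tubulin cofactors, 6 of 7 were found, none was called and none had an unadjusted p under 0.05, with the smallest p for Tbce (-0.20, adjusted p = 0.443). Together, 1 of 13 cochaperone and cofactor genes tested was called lower and 0 higher by limma, of 17 listed. The share called lower was 1.29% of all transcripts and 4.48% of the abundant transcripts.

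Of the clients, both actins and 4 tubulins were lower in EtOH livers, and the unrelated clients were not called. Actg1, the cytoplasmic gamma actin, had 156 to 216 RPKM in Control and 75.3 to 118 in EtOH livers, with a log2 fold change of -0.83 (SE 0.11, limma adjusted p = 0.0030). Actb, the cytoplasmic beta actin, had 198 to 231 and 139 to 180 RPKM, and a log2 fold change of -0.35 (SE 0.08, adjusted p = 0.042). The Actb call lies close to the threshold, and was lost when any liver other than EtOH 1 was left out (adjusted p of 0.051 to 0.088). Neither actin overlapped between the groups. The alpha tubulin Tuba4a had 48.1 to 73.3 RPKM in Control and 15.9 to 32.0 in EtOH livers (log2 fold change -1.21, adjusted p = 0.0026). The beta tubulin Tubb2a had 60.5 to 84.5 and 19.7 to 45.6 RPKM (-1.30, adjusted p = 0.0041). Tubb4b, listed under its older name Tubb2c, had 68.1 to 92.7 and 33.5 to 60.5 RPKM (-0.69, adjusted p = 0.013). Tuba1c had 43.5 to 75.0 and 27.0 to 45.3 RPKM (-0.69, adjusted p = 0.022), and its groups overlapped. That call was lost without EtOH 2 (0.053) or EtOH 3 (0.051). With the unmoderated test on square-root values, Actb (adjusted p = 0.075) and Tuba1c (0.050) were not called, which left 4 clients, and without a mean-variance trend Actb was not called (0.071), which left 5. EtOH rat 1 was the highest EtOH liver for each of these 6 client genes, as it was for Cct3, Cct5 and Cct6a.

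The tubulins did not all have lower levels. Tubb5 had 22.9 to 29.9 RPKM in Control and 25.5 to 36.1 in EtOH livers, with a log2 fold change of 0.34 that was not called (adjusted p = 0.074) but was called higher when only transcripts with a mean of at least 1 RPKM were tested (0.043), and Tuba1b was at 0.19 (adjusted p = 0.560). Of 27 clients listed, 21 were found by name and tested. By limma 6 were called lower and 0 higher, against 1.29% of all transcripts and 4.48% of the abundant transcripts called lower. These calls are not independent evidence, since Actg1, Tuba1c, Tuba4a, Tubb2a and Tubb4b were singled out by the study on the same livers, and Actb is in its wider list of altered genes. Actins and tubulins also come in near-identical copies among which reads may be split in ways the sources do not describe, so the value of each copy is uncertain. Outside actin and tubulin, 0 of 8 clients tested were called by limma, with 2 at an unadjusted p under 0.05 (Cdc20 and Fzr1), and 0 by voom. Gnb1, a G protein beta subunit whose folding needs CCT and a phosducin-like protein, had a log2 fold change of -0.02 (adjusted p = 0.944). Cdc20, an activator of the anaphase-promoting complex, had the smallest p, with 0.802 to 4.34 RPKM in EtOH and 0.909 to 1.68 in Control livers (0.82, adjusted p = 0.234).

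**Figure D4:**
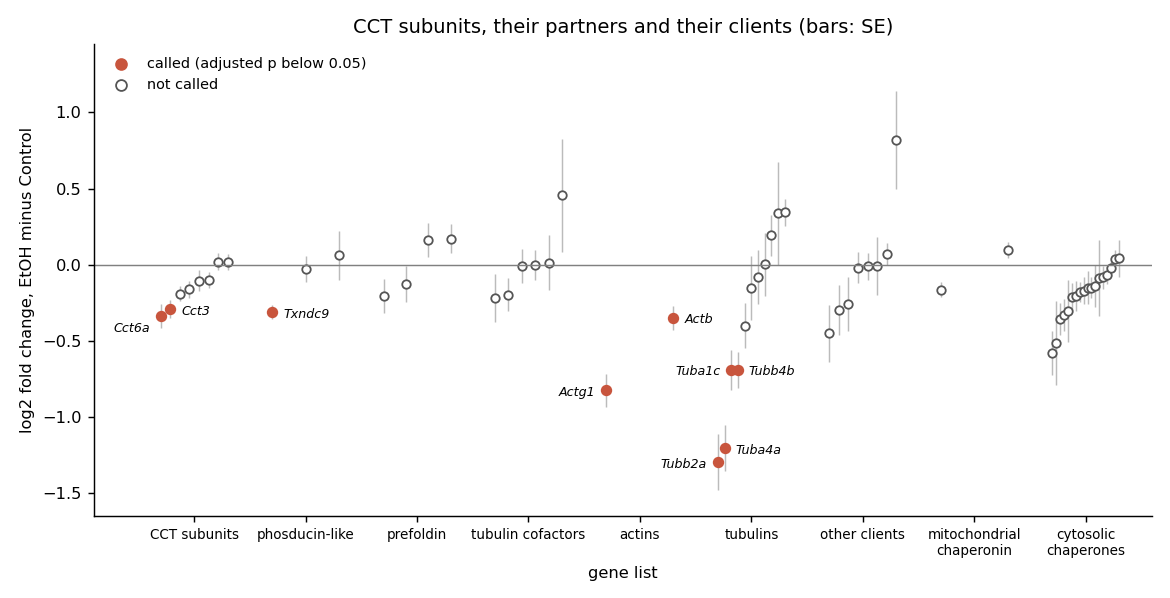
Fitted log2 fold change (EtOH minus Control, limma after quantile normalization, n = 6 per group) of the CCT subunits, their partners, clients and other chaperones, 1 point per gene with SE as bars. Filled points are called and named, and all of them lie below 0, from -0.29 for Cct3 to -1.30 for Tubb2a.

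Other chaperones served as a comparison. The mitochondrial chaperonin, a separate folding machine, was not called by limma, with log2 fold changes of 0.10 for Hspd1 (adjusted p = 0.408) and -0.16 for its lid Hspe1 (adjusted p = 0.109). Of 21 cytosolic heat shock proteins and cochaperones listed, 18 were found and 0 were called by limma. An unadjusted p under 0.05 was reached by 5 of 18, against 34.8% of the abundant transcripts. Limma voom on the recovered reads called 1, median scaling 2 and the fit without normalization 4. Of all 21718 transcripts, the same 3 fits called 524, 531 and 774. The median log2 fold change of these 18 chaperones was -0.16, and 16 of 18 were below 0. The smallest p was that of Bag3, a heat-inducible cochaperone of the Hsp70 proteins, with 14.1 to 23.2 RPKM in Control and 8.65 to 15.4 in EtOH livers (-0.58, adjusted p = 0.054). The median of the CCT subunits was thus not more negative than that of these chaperones. Among the 5 genes related to CCT subunits by sequence, Mkks, Bbs10, Bbs12, Cct6b and Cct8l1, none was called or had an unadjusted p under 0.05, and Cct6b had the smallest p (adjusted p = 0.519) on the few reads given above.

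The profile of the 8 subunits over the 12 livers was close to that of some genes outside CCT. Likeness was measured as the root mean square difference, over 12 livers, between a gene's centred quantile-normalized log2 value and the mean of the 8 subunits. Over 9536 genes the median difference was 0.269. The mean profile varied little, with an SD of 0.095 over the 12 livers, so a gene that hardly varied also lies near it. The 5 nearest were Sord (0.047), the sorbitol dehydrogenase, Atp6v1g1 (0.048), a subunit of the vacuolar proton pump, LOC687780 (0.051), Prelid1 (0.051), a mitochondrial lipid transfer protein, and Pitpna (0.054), a phosphatidylinositol transfer protein. The subunits themselves lay between 0.055 for Tcp1 and 0.153 for Cct6a. Cct2 (0.101), Cct3 (0.102), Cct4 (0.107) and Cct6a differed from the mean profile by more than its SD. Tcp1 had 6 other genes nearer to the mean profile than itself and Cct6a had 1221, although each subunit is part of that mean. Each liver enters all these profiles with its own depth and scaling, and likeness over 12 livers says nothing of function.

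The labelled tissue was checked against marker genes. All 5 hepatocyte markers found, of 6 listed, were abundant in every liver, and albumin (Alb) lay between 57999 and 92323 RPKM. Of those, Cps1, the first enzyme of the urea cycle, was called higher in EtOH livers (log2 fold change 0.58, adjusted p = 0.022). Of the 5 Kupffer cell markers found, of 6 listed, 3 were called higher, Clec4f (0.48), Cd163 (0.66) and Vsig4 (0.46), against 1.13% of all transcripts. Without normalization between livers, 1 of the 5 was called. The summed RPKM of the 5 was 81.1 to 125 in Control and 114 to 147 in EtOH livers. The 6 stellate cell markers summed to 6.36 to 12.8 and 11.0 to 23.5 RPKM, with 0 called by limma, 0 by voom and 3 at an unadjusted p under 0.05 (Dcn, Reln and Col1a1). Median scaling and the fit without normalization between livers each called 1 of them. Of the endothelial markers 2 of 6 were found and summed to 21.0 to 27.1 and 22.9 to 33.1 RPKM. Of the cholangiocyte markers 3 of 4 were found and summed to 4.27 to 8.16 and 3.69 to 7.67 RPKM. Neither list had a limma call, and at an unadjusted p under 0.05 stood Lyve1 alone, an endothelial marker. Of the dividing-cell markers 2 of 4 were found, and Ccnb1 was called higher (1.52) on 7 Control and 82 EtOH reads. No marker found was at 0 in all livers. Depth also moved with the group, as the totals above show. The part of cell composition or depth in the subunit levels was not tested.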

How the data were processed

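Hepatic poly(A) RNA of 12 rats, labelled by animal as 6 EtOH and 6 Control, was sequenced as 101-nt paired-end reads, barcoded and pooled in a single lane. The authors made the deposited RPKM values with CLCbio Genomics Workbench 4.9, whose values are scaled to transcript length and mapped reads. The genome build and the handling of reads that match several genes are not given in the sources used here. The deposited columns of the authors' own comparison (fold change, test statistic, p and FDR) were not used.

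Whole reads were recovered from the RPKM steps: 100% of 21718 transcripts above 0 came out whole within 0.01 read. Of these, 2052 were above 0 in a single liver, where a fit is certain. Rising read numbers were tried until a set fitted. A fit is thus also easy with few livers, and the 100% is no check there. Each gene was represented by its entry of highest mean RPKM. The comparison was limma 3.58.1 (R 4.3.3) of quantile-normalized log2(RPKM + 0.5), with the variance trended on the mean, two-sided, with Benjamini-Hochberg adjustment over all transcripts above 0, as the values are not counts. Its spread is that between separate animals. The fit was also run on simulated data, whose outcome is not reported here. Those data had the same spread setting for all transcripts and no shift of scaling between groups. The run therefore cannot show how scaling affects the calls. Tables and figures were made with matplotlib 3.10.9, pandas 2.3.3 and numpy 2.4.6 under Python 3.11.15.

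Members and gene lists were chosen with earlier results of these data known. The genes named are the 8 subunits; in each list of partners, clients and other chaperones, every gene called and the one with the smallest p; Gnb1, Actb and Actg1 in any case; and the 5 genes of nearest profile with a mean of at least 1 RPKM. Others (Pdcl, Pdcl3, Tubb5, Tuba1b, Fzr1 and single markers) were named after their values were seen. Promoters were from the RefSeq table of GRCr8. Genes not found by name were not analysed here. Alternatives were pseudocounts of 0.1 and 1, no normalization, median scaling, square-root values with and without moderation (the latter the test of the paper's methods), a minimum mean of 0.1 or 1 RPKM, limma without the trend, a block for animal number, limma voom on recovered reads and each liver left out in turn. The share called among transcripts of at least 10 RPKM was added after seeing the data.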

Additional observations from a re-analysis of the deposited data

Results flagged for a closer look

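In 18 groups of 6 livers (the 8 subunits and their sum in each group), 3 single livers stood apart by Dixon's test, which chance does in about 1 in 20 groups. Cct3 in EtOH rat 2 was 35.3 RPKM, with the nearest EtOH liver at 40.5. Cct5 in Control rat 3 was 95.2 RPKM, with the nearest Control liver at 75.4. Cct7 in Control rat 3 was 53.7 RPKM, with the nearest at 42.7. Without Control rat 3 the log2 fold change was -0.06 for Cct5 and -0.07 for Cct7, and neither was called (limma adjusted p = 0.696 and 0.551). Without EtOH rat 2 that of Cct3 was -0.27 (limma adjusted p = 0.063).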

How the results depend on the processing

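Of the 8 subunits, 2 were called under quantile normalization, 4 without normalization between livers, 1 with limma on square-root values, 1 with the unmoderated test on square-root values and 0 without a trend. With each liver left out in turn, 0 to 2 were called (0 without Control 4, EtOH 2, EtOH 4 or EtOH 5). Cct6a lost its call on square-root values (adjusted p = 0.051, unmoderated 0.073) and without a trend (0.073), where Cct3 was at 0.054; the cause was not tested. The median log2 fold change of the subunits was -0.30 without normalization, and -0.16 to -0.11 with a liver left out. Cct2 turned negative without normalization (-0.14), under median scaling (-0.0506), with voom (-0.0232) and without Control 1 (-0.0037) or Control 6 (-0.0045), within -0.0045 to 0.0454 with a liver left out. Cct4 did so without normalization (-0.15), under median scaling (-0.0564), with voom (-0.0340) and without Control 1 (-0.0292), within -0.0292 to 0.0383 with a liver left out. The client calls numbered 4 to 6 with a liver left out, 4 with the unmoderated test, 5 without a trend and 7 (Tubb5, higher, added) with a minimum mean of 1 RPKM, and those of cochaperones and cofactors 1 with any liver left out. Over all transcripts, 526 were called, 322 with the unmoderated test, 860 with a minimum mean of 1 RPKM, and as few as 212 with a liver left out (EtOH 2).

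Both groups carry animal numbers 1 to 6, but same-numbered livers did not deviate together (correlations -0.07 to 0.03, with number 1 alone closest to its own partner). The labels name no pairing, and this check cannot exclude a pairing that acts on few genes. With the replicate block, 0 subunits were called (Cct3 adjusted p = 0.071, Cct6a 0.119), 0 cochaperones and cofactors, 3 clients and 113 of all transcripts.

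Depth limits the subunits to between 216 and 733 recovered reads per liver, and this counting error is part of the spread between livers.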
